A study of Mus musculus with 6 samples.

Results

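The mitochondrial ribosomal protein genes were examined as a family in the mouse macrophage line RAW264.7. They were taken as the protein-coding genes of the deposited count table whose names begin with Mrpl or Mrps followed by a digit, which gave 78 of 54532 genes. The cocultured cells had grown for 48 h in coculture with TTJ cells, a Tsc2-null mouse line that comes from an angiomyolipoma, a tumour of vessels, muscle and fat, of a tuberous sclerosis model, and they were compared with RAW264.7 cells grown alone. RAW264.7 cells of both groups carry the WT genotype label, were kept in DMEM with FBS, were collected by FACS and were sequenced as 3 libraries per group, replicates A, B and C. The labels do not say whether the replicates were separate cultures, so the spread behind each p-value is that of libraries and may be technical.

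Mitochondria carry their own ribosome, which translates the few mRNAs of the mitochondrial genome into core subunits of the respiratory chain and of the ATP synthase. Its RNAs are transcribed inside the organelle, whereas all of its proteins are encoded in the nucleus, made in the cytosol and imported. Genes named Mrpl mostly encode proteins of the large subunit, where peptide bonds form, and genes named Mrps mostly encode proteins of the small subunit, where the mRNA is decoded. Some of these proteins have relatives in bacterial ribosomes and others exist only in mitochondria. In macrophages, oxidative phosphorylation is known to differ between activation states, and Tsc2, the gene missing in TTJ cells, encodes a brake on mTORC1 signalling.

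The 6 libraries held 14329487 to 16976782 counts in coculture and 14621832 to 17358280 counts alone, of which the 78 genes took 0.358% to 0.376% in coculture and 0.374% to 0.386% alone. Of 12 renal and simple epithelial markers, 9 were tested and all 9 were higher in coculture, with a summed level of 358 to 413 CPM (counts scaled to library size) in coculture and 0 to 0.115 CPM alone, where 9 of the 12 had no count. Epcam and Cldn7 had no count in any cocultured library. The 12 mesenchymal and smooth muscle markers summed to 59.3 to 64.1 CPM in coculture and 1.90 to 2.13 CPM alone, with Col3a1, Pdgfra and Thy1 at 0 in coculture. The 10 macrophage markers, which include Lyz2, Csf1r and Cd14, summed to 12336 to 12666 CPM in coculture and 11800 to 11895 CPM alone, with Lyz2 at 7266 CPM in coculture and 6768 CPM alone holding most of the sum. Of these markers 4 were higher, Itgam most (log2 0.89), 3 were lower, Tyrobp (-0.30), Spi1 (-0.23) and Cd68 (-0.10), and 3 were not called. These transcripts of other cell types moved with the coculture label in every comparison below, and their part in the results was not tested.

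The mitochondrial ribosomal protein genes changed little as a family. Of the 77 that passed the filter on low counts, 8 were higher and 16 were lower in coculture, and 53 did not pass the test (edgeR quasi-likelihood test, adjusted p under 0.05 over all 12972 genes tested). Together 31.2% of the family passed, against a background of 36.9% of all genes tested and 38.6% of those with a mean level of at least 10 CPM, which all 77 reached. The share called higher was 10.4% of the family against 21.7% of all genes, and the share called lower was 20.8% against 15.2%. Among these 8881 genes of at least 10 CPM, 18.1% were called higher and 20.5% lower, so the share of the family called lower was near that of genes in its own range of levels. The log2 changes had a median of -0.04, with an interquartile range of -0.14 to 0.05, while the median over all genes tested was 0.0029 and over those of at least 10 CPM was -0.02.

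The sizes were small. Mrps6 was the only gene of the family to pass the test with an absolute log2 change of at least 0.5, which is 1.30% of the family, against 14.9% of all genes tested and 6.98% of those with at least 10 CPM. The 95% interval of the log2 change lay within 0.5 of zero for 92.2% of the family, 61.8% of all genes tested and 85.3% of those with at least 10 CPM. The values of the 2 groups did not overlap for 29 of the 77 genes (37.7%), against 47.1% of all genes tested and 49.2% of those with at least 10 CPM. Of these, 17 were lower in coculture (22.1% of the family, against 21.0% of all genes) and 12 were higher (15.6%, against 26.1%). Among the 8881 genes with at least 10 CPM, 2383 were lower without overlap and 1985 were higher without overlap. In both directions the share of the family lay below that of these genes. The counts of calls depended on single libraries. Without cocultured replicate C, 5 genes were called lower, and without lone replicate B the number was 10. The number called higher was 3 without cocultured replicate A, 4 without B, 5 without C, 3 without lone replicate A and 4 without lone replicate C.

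Summed over the 78 genes, the level was 3680, 3755 and 3577 CPM in coculture, against 3822, 3869 and 3738 CPM alone. The groups overlapped, since cocultured replicate B lay above lone replicate C, and the means of 3670 ± 89.3 CPM in coculture and 3810 ± 66.3 CPM alone (SD, n = 3 each) differed by a log2 of -0.05. No test was made of this sum, because with 3 libraries a group the smallest two-sided p of an exact permutation test is 0.1. In bulk RNA, fewer cells that express a gene and less of its RNA per cell cannot be told apart. Large-subunit genes summed to 2528 ± 59.8 CPM in coculture and 2609 ± 36.9 CPM alone, and small-subunit genes summed to 1120 ± 30.9 CPM in coculture and 1179 ± 30.2 CPM alone (SD, n = 3 each).

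**Figure D1:**
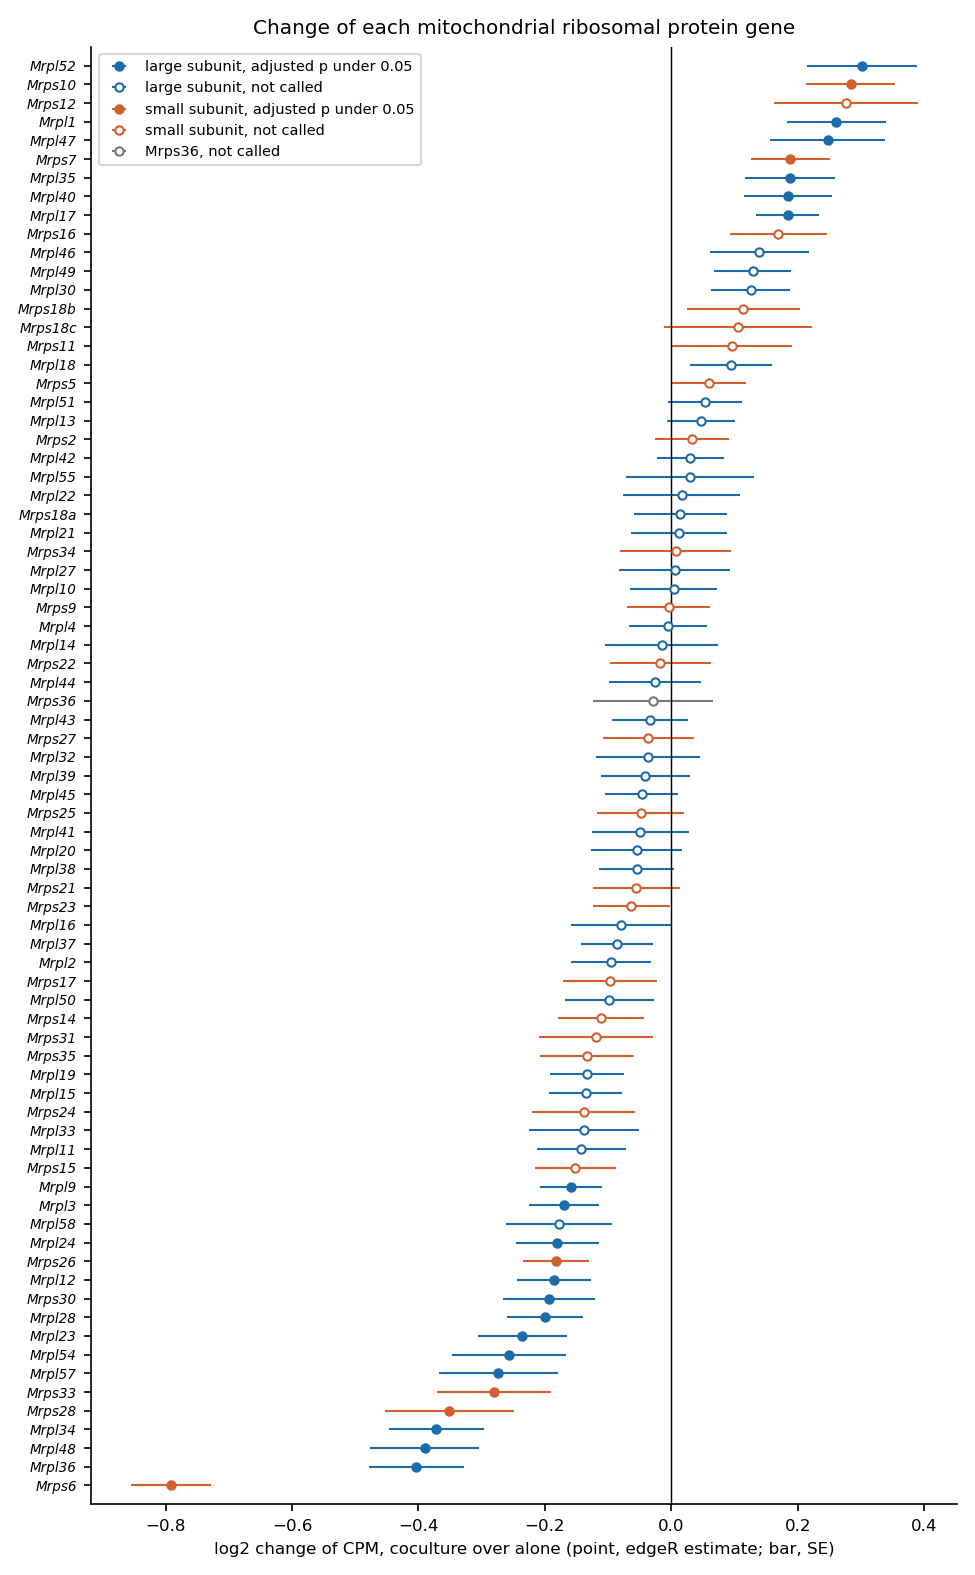
Log2 change (coculture over alone, edgeR estimate with SE as bars) of the 77 tested Mrpl and Mrps genes, ordered by change; filled points passed an adjusted p of 0.05. Mrps6 at -0.79 stands apart at the bottom, and the other genes lie between -0.40 and 0.30.

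The small subunit held 26 of the genes, of which 2 were higher, 4 lower and 20 not called, with a median log2 change of -0.04. Mrps6 (ENSMUSG00000039680; chromosome 16, 92058270 to 92112227 on the plus strand, mm10), which has a bacterial small-subunit relative, changed most. It had 59.9, 54.8 and 50.5 CPM in coculture, against 90.5, 101 and 93.5 CPM alone. The groups were far apart, and its level was 1.73-fold lower in coculture (log2 -0.79, SE 0.0637, edgeR adjusted p = 1.58e-10). It was the only one of the 77 genes past a log2 of 0.5, and its call was kept in all 19 alternative analyses.

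Slc5a3, the gene of a sodium-coupled myo-inositol transporter, starts within Mrps6 on the same strand, at 92058322, where Mrps6 starts at 92058270. In the GENCODE M21 annotation 159 exonic bases, 10.4% of those of Mrps6, belong to both genes, and 305 are shared with the unnamed gene Gm49711. Slc5a3 had 111, 110 and 120 CPM in coculture, against 250, 256 and 259 CPM alone, and it fell more than Mrps6 did in its point estimate (log2 -1.17, SE 0.0469, edgeR adjusted p = 1.8e-16). The sources used here do not say how reads in shared bases were assigned, so the part of the Mrps6 count that comes from Slc5a3 transcripts cannot be told apart.

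Mrps28, another small-subunit protein, had 18.1, 17.2 and 14.8 CPM in coculture, against 20.7, 21.5 and 21.4 CPM alone. Its cocultured values all lay below the lone ones, with replicate C lowest (log2 -0.35, SE 0.102, edgeR adjusted p = 0.00783). Without cocultured replicate C that call was lost (adjusted p = 0.0705). Mrps33, a protein without a bacterial relative, averaged 23.5 ± 1.94 CPM in coculture and 28.6 ± 2.29 CPM alone (SD, n = 3 each; log2 -0.28, edgeR adjusted p = 0.0162). Mrps26 was also lower, at 91.2 ± 3.11 CPM in coculture and 103.5 ± 4.67 CPM alone (log2 -0.18).

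The small-subunit genes called higher were Mrps10 and Mrps7, both with bacterial relatives in the head of the subunit. Mrps10 averaged 52.3 ± 3.60 CPM in coculture and 42.9 ± 2.65 CPM alone, without overlap (log2 0.28, SE 0.0706, edgeR adjusted p = 0.00232), a call kept in all 19 alternatives. Mrps7 averaged 69.1 ± 2.28 CPM in coculture and 60.6 ± 4.81 CPM alone (log2 0.19, edgeR adjusted p = 0.0204), and its exons overlap on the opposite strand those of Gga3, which was lower. Mrps12, a relative of a bacterial decoding-centre protein, had an estimate as large as that of Mrps10 (log2 0.28, SE 0.114) that did not pass (adjusted p = 0.0608).

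**Figure D2:**
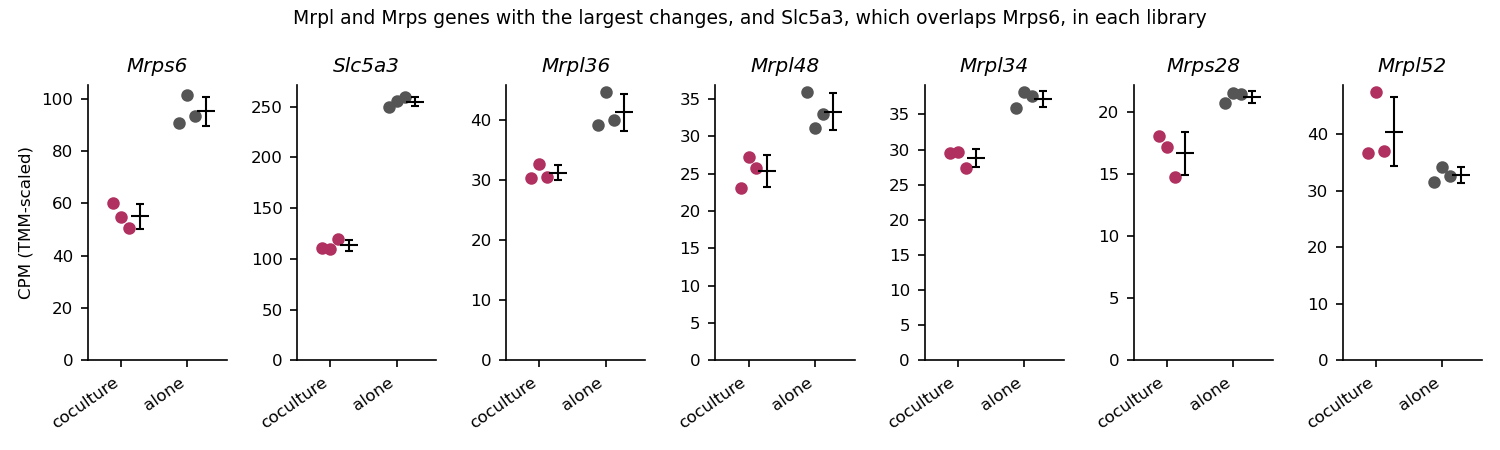
Level in each library (CPM, TMM-scaled; points) with mean and SD, coculture left of alone, for the 6 Mrpl and Mrps genes with the largest changes and for Slc5a3, which shares bases with Mrps6. Mrps6, Slc5a3, Mrpl36, Mrpl48, Mrpl34 and Mrps28 are lower in every cocultured library, and Mrpl52 is higher, with replicate B at 47.5 CPM above the other cocultured values.

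The large subunit held 51 of the genes, of which 50 were tested, 6 were higher, 12 lower and 32 not called, with a median log2 change of -0.04. Mrpl36 (chromosome 13, 73328513 to 73332178, plus strand), a small protein with a bacterial relative, had 30.4, 32.6 and 30.5 CPM in coculture, against 39.1, 44.7 and 39.9 CPM alone. Its groups did not overlap (log2 -0.40, SE 0.0754, edgeR adjusted p = 0.000116). On the opposite strand 30 of its exonic bases lie in Ndufs6, a complex I subunit gene, which was lower too (log2 -0.20, adjusted p = 0.0452). Mrpl34 (chromosome 8, 71464959 to 71465747, plus strand), another small protein of bacterial descent, had 29.5, 29.7 and 27.3 CPM in coculture, against 36.0, 38.1 and 37.6 CPM alone. It fell by 0.37 on the log2 scale without overlap of the groups (SE 0.0750, edgeR adjusted p = 0.000285).

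Other large-subunit proteins of bacterial descent differed less. Mrpl23, which lies at the exit of the peptide tunnel, averaged 38.9 ± 2.09 CPM in coculture and 45.8 ± 2.15 CPM alone (log2 -0.24, edgeR adjusted p = 0.00946). Mrpl28 averaged 56.7 ± 1.98 CPM in coculture and 65.2 ± 2.48 CPM alone (log2 -0.20, edgeR adjusted p = 0.0102). Mrpl12, a stalk protein that also binds the mitochondrial RNA polymerase, averaged 77.9 ± 5.24 CPM in coculture and 88.7 ± 5.26 CPM alone, with overlap of the groups (log2 -0.19, edgeR adjusted p = 0.0150). Mrpl24, Mrpl3 and Mrpl9 were called lower by 0.16 to 0.18 on the log2 scale.

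In the same class, 4 genes were called higher. Mrpl1, a protein of the stalk through which tRNA leaves, averaged 41.0 ± 2.59 CPM in coculture and 34.1 ± 3.16 CPM alone (log2 0.26, edgeR adjusted p = 0.0102). Mrpl47 averaged 28.4 ± 3.20 CPM in coculture and 23.9 ± 1.09 CPM alone (log2 0.25, edgeR adjusted p = 0.0351), and its exons overlap on the opposite strand with those of Actl6a and Ndufb5, both lower. Mrpl35 averaged 41.2 ± 1.69 CPM in coculture and 36.1 ± 1.95 CPM alone (log2 0.19, edgeR adjusted p = 0.0417). Mrpl17, at the peptide exit, averaged 119.4 ± 3.35 CPM in coculture and 105.1 ± 3.92 CPM alone (log2 0.18, edgeR adjusted p = 0.00432), and its call was kept in all 19 alternatives.

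Among large-subunit proteins classed as mitochondria-specific by the standard mitoribosome nomenclature, 2 genes were higher and 4 lower. Mrpl48 (chromosome 7, 100545751 to 100608301, minus strand), a protein of the central protuberance that faces the small subunit, had 23.0, 27.2 and 25.8 CPM in coculture, against 35.9, 31.1 and 33.0 CPM alone. Its groups did not overlap (log2 -0.39, SE 0.0855, edgeR adjusted p = 0.000683). Rab6a, a Golgi GTPase gene that shares 708 exonic bases with Mrpl48 on the opposite strand, was higher in coculture (log2 0.26, adjusted p = 0.00920). The pseudogene Mrpl48-ps was tested with a log2 of -0.21 and was not called.

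Mrpl57 averaged 32.0 ± 4.87 CPM in coculture and 38.7 ± 4.13 CPM alone, with overlap (log2 -0.27, edgeR adjusted p = 0.0240). Mrpl54 averaged 22.3 ± 1.76 CPM in coculture and 26.6 ± 1.55 CPM alone (log2 -0.26, edgeR adjusted p = 0.0274). Mrps30, which despite its name sits in the large subunit, averaged 39.6 ± 1.08 CPM in coculture and 45.2 ± 4.17 CPM alone, with overlap (log2 -0.19, edgeR adjusted p = 0.0409). Mrps18a, also a large-subunit protein, had a log2 change of 0.01 and was not called. Mrpl58, a peptidyl-tRNA hydrolase built into the large subunit that can release stalled peptides, had a log2 of -0.18 that did not pass (edgeR adjusted p = 0.103).

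Mrpl52 (chromosome 14, 54426909 to 54429756, plus strand) had the largest rise, with 36.7, 47.5 and 37.1 CPM in coculture, against 31.5, 34.2 and 32.7 CPM alone. The groups did not overlap, but replicate B stood above the other cocultured values (log2 0.30, SE 0.0873, edgeR adjusted p = 0.00789). Without that library the log2 was 0.17 and the adjusted p was 0.145. Mrpl40, a central protuberance protein, averaged 40.4 ± 0.471 CPM in coculture and 35.5 ± 1.54 CPM alone (log2 0.18, edgeR adjusted p = 0.0402).

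Of the 24 calls, 6 were kept in each of 19 alternative analyses, namely the falls of Mrps6, Mrpl36, Mrpl48 and Mrpl34 and the rises of Mrps10 and Mrpl17. Leaving out a library ended the following calls. Among the rises, Mrpl1 lost its call without cocultured A or lone A (adjusted p 0.0773 and 0.0603), Mrpl47 without cocultured A or C or lone A or C (0.0562 to 0.232), and Mrps7 without cocultured A or B or lone A or C (0.0696 to 0.0976). Mrpl35 and Mrpl40 each lost it without any cocultured library or without lone A or C (0.0592 to 0.168 for Mrpl35, 0.0658 to 0.117 for Mrpl40). Among the falls, Mrpl23 lost its call without cocultured C (0.0756), Mrpl28 without cocultured C or lone B (0.0508 and 0.0527), and Mrpl54 without cocultured B or C or lone B (0.0534 to 0.153). Mrps33 lost it without cocultured A or C or lone A (0.0680 to 0.0973), Mrpl57 without cocultured A or C or lone B or C (0.0920 to 0.177), and Mrpl12 without cocultured A or C or lone A or B (0.0607 to 0.0855). Mrps30 lost it without any cocultured library or lone B or C (0.0653 to 0.207). For Mrps26, Mrpl24, Mrpl3 and Mrpl9 the highest edgeR or other adjusted p over the alternatives was 0.0518, 0.174, 0.154 and 0.0617, each reached with a library left out.

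By the classes of the standard mitoribosome nomenclature, the 46 genes classed with bacterial relatives had 6 higher and 10 lower. The 30 tested genes classed as mitochondria-specific had 2 higher and 6 lower. The median log2 change was -0.03 in the first class and -0.05 in the second. By gene length, the 39 shorter genes had 3 higher and 9 lower with a median of -0.03. The 38 longer ones had 5 higher and 7 lower with a median of -0.05. Of protein-coding genes with at least 10 CPM, 1193 were as short (up to 2255 bases), with 198 higher and 278 lower. The 7431 longer ones had 1386 higher and 1462 lower. Over all genes tested, 21.7% were higher and 15.2% lower, and with at least 10 CPM 18.1% and 20.5%. These shares stand beside the counts by subunit above and by promoter core below. Mrps36, which is named as a ribosomal protein but is a subunit of the 2-oxoglutarate dehydrogenase complex of the citric acid cycle, had a log2 of -0.03 (SE 0.0945) and was not called. Mrpl53, a large-subunit gene, did not pass the filter. It had 0 counts in each of the 6 libraries, which allows up to 0.0639 CPM in coculture and 0.0618 CPM alone (3 counts over a group, counting error only). In the annotation 88.0% of its exonic bases also belong to Gm42688 on the same strand, which had 17 to 24 counts in coculture and 20 to 30 alone. How reads in the shared bases were assigned is not given. The limits above therefore hold for reads counted as Mrpl53 and not for its RNA.

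Levels per length, as deposited FPKM (fragments scaled to gene length and library size), ranged 17.6-fold over the tested genes, with 3.59 at the low end, a median of 18.9 and 63.3 at the high end, while the median over all genes tested was 6.74. Mrps21 had the highest level, at 62.2 ± 3.23 FPKM in coculture and 64.5 ± 3.79 FPKM alone (SD, n = 3 each), followed by Mrpl34, Mrpl12, Mrpl43 and Mrpl2 at means over all libraries of 54.3, 54.2, 53.7 and 50.9 FPKM. In coculture Mrpl43 (53.0 ± 2.17 FPKM), Mrpl12 (50.8 ± 3.49 FPKM), Mrpl2 (49.3 ± 1.19 FPKM) and Mrpl34 (47.4 ± 2.17 FPKM) were neighbours, each differing from the next by less than 2 SD. Alone, Mrpl34 stood at 61.2 ± 1.80 FPKM, above Mrpl12 (57.7 ± 3.41 FPKM), Mrpl43 (54.3 ± 3.26 FPKM) and Mrpl2 (52.6 ± 3.64 FPKM). The lowest levels were those of Mrpl48 (3.10 ± 0.262 FPKM in coculture and 4.08 ± 0.303 FPKM alone), Mrpl33 (mean over all libraries 3.84 FPKM) and Mrps35 (4.99 FPKM). Their deposited lengths were 8152, 7326 and 8631 bases, where the tested genes span 607 to 8631, and FPKM depends on these lengths. By CPM they were not lowest, with Mrps35 at 41.2 CPM in coculture and 45.1 CPM alone and the lowest mean of a tested gene at 14.2 CPM. Pearson's r of log2 FPKM between the group means was 0.984 over the 77 genes, a description across genes that share libraries and lengths. Between the groups 14 genes moved by more than 5 ranks. Mrps6 ranked 10 in coculture, at 35.9 ± 3.07 FPKM, and 2 alone, at 61.9 ± 3.56 FPKM, and Mrpl52 ranked 9 in coculture and 22 alone.

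**Figure D3:**
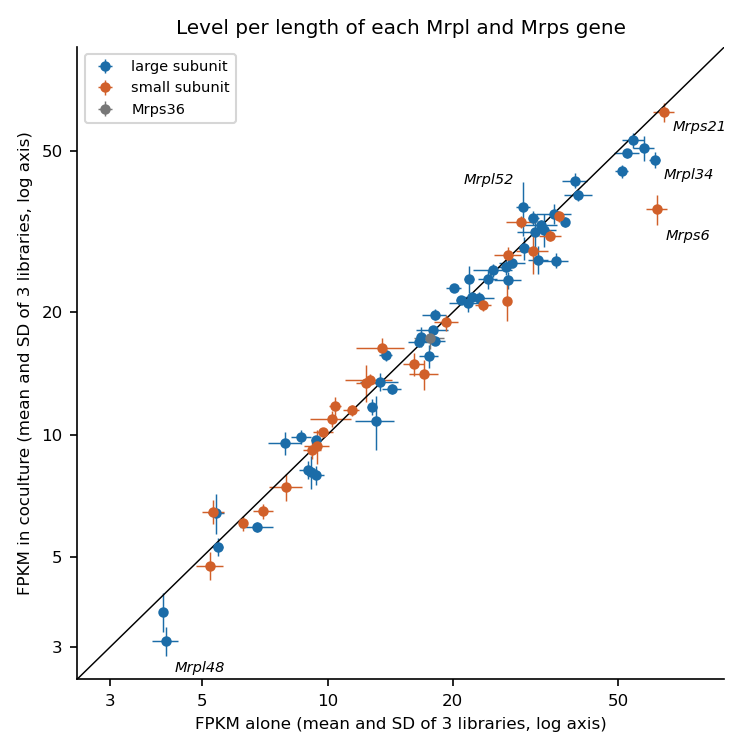
Mean level per length (deposited FPKM, log axes, SD of 3 libraries as bars) of each tested Mrpl and Mrps gene, coculture on the vertical axis and alone on the horizontal axis, with the line of equal level. Most genes lie on or near the line, Mrps6 lies below it at 35.9 FPKM in coculture and 61.9 FPKM alone, and Mrpl52 lies above it.

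The promoters of these genes are known to hold sites for ETS-family factors such as GABP (nuclear respiratory factor 2), and for NRF1 and YY1, so the RefSeq promoter windows of build GRCm38.p6, 250 bases before to 50 after the start, were searched on both strands. Of the 78 genes, 69 had a window, with 75 promoters in all. The ETS core CCGGAAG was present for 26 genes (37.7%), against 21.1% of 9415 tested genes with a window. Counted by promoter, it was in 34.7% of those of the family and in 8.86% of all 32851. The NRF1 core GCGCATG was present for 8 genes (11.6%, against 8.15% of tested genes), the YY1 core ATGGCGG for 13 (18.8%, against 9.65%) and the E-box CACGTG, a site read by Myc, for 5 (7.25%, against 11.8%). No test of these shares was made. A match describes the letters in the window and is not a site shown to be bound.

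The 100 bases before the RefSeq start are shown for a gene that fell, a gene that rose and a highly expressed gene that was not called, 5′ to 3′ on the strand of the gene, with the ETS core or its reverse complement CTTCCGG in capitals. They are Mrpl34 at chr8:71464826-71464925 on the plus strand, Mrpl52 at chr14:54426809-54426908 on the plus strand and Mrpl43 at chr19:45006443-45006542 on the minus strand.
Mrpl34: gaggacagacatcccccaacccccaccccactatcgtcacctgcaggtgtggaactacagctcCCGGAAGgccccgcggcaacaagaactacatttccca
Mrpl52: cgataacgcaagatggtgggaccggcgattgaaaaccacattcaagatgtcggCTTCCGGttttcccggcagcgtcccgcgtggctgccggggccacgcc
Mrpl43: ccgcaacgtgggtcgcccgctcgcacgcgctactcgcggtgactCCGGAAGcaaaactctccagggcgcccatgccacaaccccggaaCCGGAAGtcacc
The core stands upstream of Mrpl34, with a log2 of -0.37, and of Mrpl52, with 0.30, whose call was lost without cocultured replicate B. It stands at 2 places upstream of Mrpl43, which had a log2 of -0.03 (SE 0.0607, not called). Whether the core has a part in these values was not tested. Of the 26 genes with the core, 2 were higher and 6 lower. Their median log2 change was -0.02, and that of the genes without it was -0.05.

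Other genes of mitochondrial translation were set beside the family. In 6 lists of nuclear genes with 92 tested members, 5 were higher (5.43%, against 21.7% of all genes tested) and 15 lower (16.3%, against 15.2%), with a median log2 change of -0.07. The share called lower was near the background. Among genes with at least 10 CPM, 18.1% were called higher and 20.5% lower. These background shares stand beside the counts of each list below, and no list was tested as a set. The mitoribosome subunits that carry other names, Dap3, Ptcd3, Chchd1, Aurkaip1 and Gadd45gip1, had 0 of 5 called by edgeR, 1 with an unadjusted p under 0.05 (Gadd45gip1, log2 0.26, adjusted p = 0.0514), 0 called by the DESeq2 Wald test and 1 by limma-voom. Ptcd3, at 123 ± 5.75 CPM in coculture and 122 ± 1.29 CPM alone, and Dap3, at 106 ± 3.82 CPM in coculture and 106 ± 2.41 CPM alone, were the highest of these. In the list of assembly and rRNA modification factors, 1 of 25 was higher and 3 were lower. Mrm2, an rRNA methyltransferase, had 11.5 ± 0.123 CPM in coculture and 9.18 ± 0.468 CPM alone (log2 0.32, edgeR adjusted p = 0.0472). Mtg1, a GTPase of large-subunit assembly, was lower by a log2 of -0.31, and Rpusd4, a pseudouridine synthase, by -0.28 (edgeR adjusted p = 0.0135 and 0.000900). The call of Mrm2 was lost without each of the 6 libraries in turn (adjusted p 0.0564 to 0.130), and that of Mtg1 without cocultured replicate A (adjusted p = 0.0665).

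Of 13 translation factors tested, 1 was lower, Guf1, an elongation factor (log2 -0.23, edgeR adjusted p = 0.00535). Of 20 mitochondrial aminoacyl-tRNA synthetase and amidotransferase genes, 1 was higher and 5 were lower, with a median of -0.11. Gatb, a subunit of the amidotransferase that makes glutaminyl-tRNA, averaged 42.9 ± 3.50 CPM in coculture and 58.1 ± 2.31 CPM alone (log2 -0.44, edgeR adjusted p = 1.3e-05). Wars2, which charges the tryptophan tRNA, had a log2 change of -0.43 (edgeR adjusted p = 0.000645). Of 19 genes of mitochondrial transcription and RNA handling tested, 1 was higher and 5 were lower, with a median of -0.12. Hsd17b10, a component of mitochondrial RNase P, had a log2 of -0.28, Tfb2m, a transcription initiation factor, -0.25, and Supv3l1, an RNA helicase of RNA decay, -0.24 (edgeR adjusted p = 0.00161, 0.0288 and 0.00357). The call of Tfb2m was lost without cocultured A or C or lone A or C (adjusted p 0.0505 to 0.105).

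Among 10 nuclear regulators of mitochondrial genes, 2 were higher and 1 lower. Myc averaged 29.7 ± 2.10 CPM in coculture and 1.61 ± 0.403 CPM alone (log2 4.19, SE 0.152, edgeR adjusted p = 2.52e-17). Ppargc1a, a coactivator of mitochondrial biogenesis, had 45, 38 and 48 counts in coculture and 0 in each lone library, so it passed the filter only through the cocultured group. Gabpb2, a subunit of GABP, was lower (log2 -0.23, edgeR adjusted p = 0.00108), while Nrf1, Gabpa, Gabpb1 and Yy1 were not called. Renal and epithelial transcripts moved the same way as Myc and Ppargc1a, and their part in these values was not tested.

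Of the 13 mRNAs that the mitochondrial ribosome translates 12 were tested, and 8 of these (66.7%) were lower and 0 higher. The share called lower was 15.2% of all genes and 20.5% of those with at least 10 CPM. Their median log2 change was -0.37. The 13 summed to 12898 to 13700 CPM in coculture (mean 13376) and 15098.5 to 16754.5 CPM alone (mean 15870), and these sums did not overlap. Gene by gene, the groups did not overlap for 5 of the 12, against 47.1% of all genes tested. By unadjusted p under 0.05, 8 were lower as well. By the DESeq2 Wald test and in each of the FPKM fits 4 were lower, with 0 higher in each. mt-Nd3, mt-Nd4l, mt-Co3 and mt-Atp6 did not pass, and mt-Atp6 had a log2 of -0.0032 (SE 0.0959). mt-Nd2 averaged 806 ± 50.3 CPM in coculture and 1097 ± 22.1 CPM alone, and mt-Cytb 1576 ± 91.0 CPM in coculture and 2137 ± 86.5 CPM alone (each with a log2 of -0.44, edgeR adjusted p = 1.4e-09 and 9.91e-10). mt-Co2 was called with a log2 of -0.62, but without lone replicate B, which held 77.5 CPM against 28.1 and 34.2 CPM in the other lone libraries, it was -0.04 (adjusted p = 0.768), and without cocultured replicate A its adjusted p was 0.0812. Whether these mRNAs differed more than the Mrpl and Mrps genes was not tested.

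**Figure D4:**
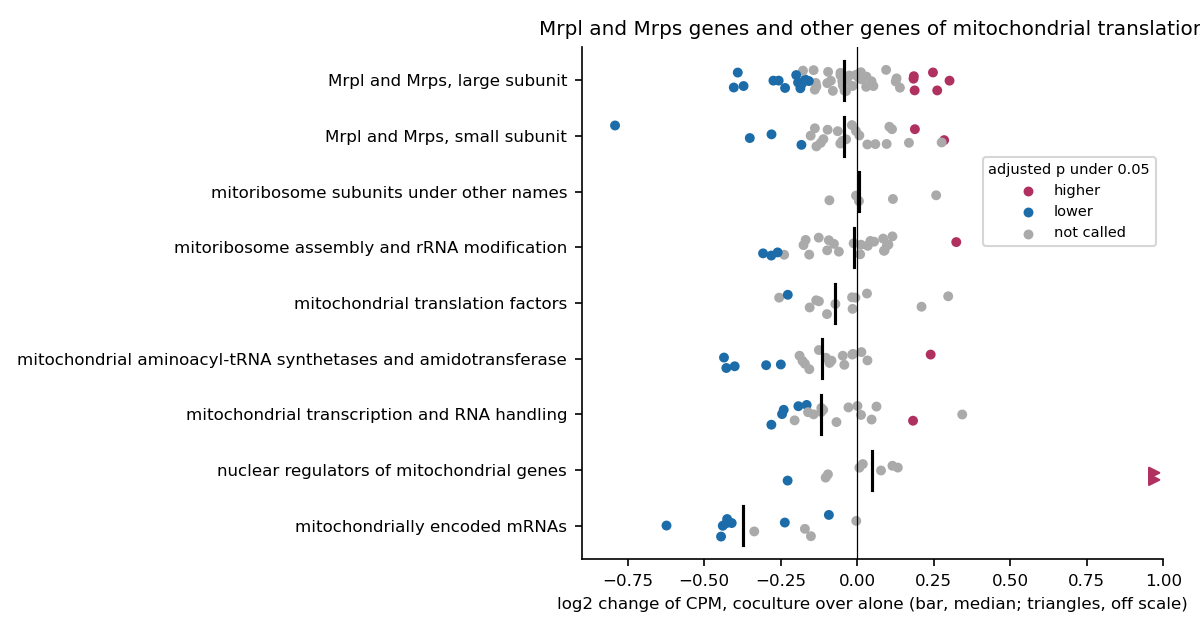
Log2 change (coculture over alone, edgeR estimate) of each tested gene of the family by subunit and of 7 other lists of mitochondrial translation, with the median as a bar and colours for genes past an adjusted p of 0.05. The medians lie between -0.12 and 0.05 for the nuclear lists and at -0.37 for the mitochondrially encoded mRNAs, and Myc and Ppargc1a lie beyond the right edge.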

How the data were processed

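The authors deposited raw counts per gene for 54532 genes and an FPKM table of the same 6 libraries, per the file headers. Per the labels' protocols, mRNA was selected with poly-T beads and primed with random hexamers. Tools listed in the submitters' processing notes, with no roles, are edgeR 3.22.5, DESeq2 1.20.0, featureCounts 1.5.0-p3 and HISAT2 2.0.5, on the build mm10. The sources used here do not give the strand setting, and reads of overlapping or antisense genes cannot be told apart. The deposited FPKM equalled count over length and library total, times 0.996 to 1.004 per library. The libraries of each group differed beyond counting noise (chi-square per degree of freedom 2.98 to 4.57).

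All genes were fitted together with the edgeR 4.0.16 quasi-likelihood test in R 4.3.3 (TMM, filterByExpr, group only, Benjamini-Hochberg adjusted p under 0.05, 12972 genes). SE is the absolute log2 change over the square root of F, and intervals are 95%. CPM values use TMM-scaled library sizes, and values are mean ± SD. The fit was also run on simulated counts with the same dispersion for every gene. That setting is simpler than these libraries, so the run does not measure the error rate here. Intervals come from the quasi-likelihood fit and include the spread between libraries, while limits on counts of 0 cover counting error only. Coordinates are those of the deposited table, and exon overlaps come from GENCODE M21, in which 73 of the 78 genes have the same coordinates.

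The members and the gene lists were chosen with earlier results of these data known. The genes named with values are the called members with the largest rises and falls (up to 10 each), those of highest (5) and lowest (3) mean FPKM, members under the filter, Mrps30, Mrps18a, Mrps36, Mrpl58 and Mrpl12, and up to 3 called genes of each list, or with none the 2 highest. A gene that this rule names is not reported here. Other genes named were chosen after their values were seen. Alternatives were DESeq2 size factors, upper quartile scaling, library totals, TMM factors from genes of at least 1 CPM in every lone library, no filter, a filter of 1 CPM in 3 libraries, only protein-coding genes, the replicate letter as a block, the DESeq2 1.42.0 Wald test, limma 3.58.1 with voom, limma with a trend on log2(FPKM + 1), log2(FPKM + 0.1) and with a mean FPKM filter of 1, and each library left out.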

Additional observations from a re-analysis of the deposited data

How the results depend on the processing

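The family's median log2 change stayed below 0 in all 19 alternatives, and 6 of the 24 calls were kept in each of them. The family had 4 genes higher by the DESeq2 Wald test and by limma with a mean FPKM filter of 1, where the number of all genes higher was 1707. With each library left out, 3 to 9 genes of the family were higher and 5 to 16 lower, 2586 to 2837 of all genes higher and 1557 to 1767 lower, 3 to 5 genes of the nuclear lists higher and 11 to 18 lower, and 7 to 8 mitochondrially encoded mRNAs lower. The nuclear lists had 3 genes higher with upper quartile scaling and by the DESeq2 Wald test, and 4 mitochondrially encoded mRNAs were lower by the DESeq2 Wald test and in each of the FPKM fits. The cause was not tested. The same-letter libraries did not deviate together (correlations of 0.0014, 0.020 and 0.035), and not every library correlated best with its own letter. With the replicate letter as a block 24 genes of the family were called, 8 higher and 16 lower, 23 of them shared. Uncalled genes near 0 changed sign: with a library left out, Mrpl43 ranged from -0.0784 to 0.0114, Mrps18a from -0.0574 to 0.0945, Mrps36 from -0.0896 to 0.0162, Ptcd3 from -0.0357 to 0.0325 and Dap3 from -0.0284 to 0.0133. Ptcd3 was at -0.0034 with upper quartile scaling and -0.0011 with no filter, and Dap3 at 0.00023 with library totals, 0.0120 with TMM factors from genes of lone cells and 0.0034 with the filter of 1 CPM. The lowest library count of a tested gene of the family was 175, and the largest SE of its log2 changes was 0.117.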

Other observations

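The genes of the family lay on 17 chromosomes, with 11 of them on chromosome 11. Of the 78, 19 (24.4%) had a divergent protein-coding neighbour that starts within 1000 bases, against 10.9% of 11485 protein-coding genes tested. A divergent neighbour lies on the opposite strand, starts upstream of the gene's own start and is transcribed away from it. Opposite-strand genes that start inside a gene of the family, such as Rab6a in Mrpl48, were not counted. Of the 18 neighbours tested, 1 was higher in coculture, Mitd1 beside Mrpl30 (log2 0.31, edgeR adjusted p = 0.00184), and 8 were lower. Over all genes tested 21.7% were called higher and 15.2% lower, and of those with at least 10 CPM 18.1% and 20.5%. Whether the neighbours differed from this background was not tested. Mrpl57 and Ska3, a kinetochore gene whose start lies 49 bases away, were both lower, each with a log2 of -0.27. Mrpl40 was higher (log2 0.18) while Hira, a histone chaperone gene 175 bases away, was lower (log2 -0.27, edgeR adjusted p = 0.0270). Beside Mrps12, which was not called, Sars2, a mitochondrial seryl-tRNA synthetase gene 172 bases away, was lower (log2 -0.30, edgeR adjusted p = 0.0138). These genes were chosen after their values were seen.

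In the annotation 33 of the 78 genes share exonic bases with another gene, 8 with one on the same strand and 28 with one on the opposite strand, and 11 of the 24 called genes are among them. The share of all genes with such an overlap was not counted, and a relation of overlap to the calls was not tested.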
